A study of Mus musculus with 26 samples.

Results

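Acetylation of lysine 27 of histone H3 (H3K27ac) was compared after LPS between macrophages made to express the nuclear receptor Nur77 and macrophages made to express GFP. The comparison rests on 4 of the 26 libraries of the series: the H3K27ac libraries of the Nur77 line with LPS (replicates 1 and 2) against those of the GFP line with LPS (replicates 1 and 2). Every peak of these 4 libraries was used, and peaks sharing at least 1 bp were merged into 67357 regions, of which 31330 (46.5%) held a peak in all 4 libraries and were tested. The cells were RAW 264.7, an established mouse macrophage-like line, carrying a doxycycline-inducible construct for HA-tagged Nur77 or for GFP. All cells, the GFP controls included, were given 50 ng/ml doxycycline for 18 h, so no group lacks the inducer, and the LPS groups were given 500 ng/ml LPS for 1 h. Chromatin for H3K27ac was fixed with 1% formaldehyde for 10 min. Each construct is represented by 1 stable line, and the labels do not say whether a line is a clone or a pool, so the construct and the line that carries it cannot be told apart. Whether replicates are independent cultures is not given, so p-values measure the spread between these libraries, which may be technical. Other libraries were set beside them: untreated H3K27ac of both lines (n = 2 each), RNA polymerase II (Pol II) after LPS of both lines (n = 2 each), HA after LPS of the Nur77 line (n = 3) and input of both lines with and without LPS (4 libraries).

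Nur77 is the product of Nr4a1, an orphan nuclear receptor whose gene is among the early genes switched on by LPS in macrophages. It binds as a monomer to a DNA element known as the NBRE, and can also act on genes through other factors such as AP-1 or NF-kB. H3K27ac is written by the acetyltransferases p300 and CBP, removed by histone deacetylases, and marks active promoters and enhancers. LPS, a component of the outer membrane of Gram-negative bacteria, acts through the receptor TLR4 to switch on NF-kB, AP-1 and interferon regulatory factors. The title of the series names AP-1 target genes, and the line comparison asks where acetylation differed when Nur77 was in excess.

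The promoters of 7 genes are shown because their start sites lie inside regions that differed between the lines. They were chosen after their values were seen, from named genes whose start site lay in their called region outside chromosomes 12 and 18. From that set came the 3 largest gains, the 3 largest losses, and Irf1, whose line difference turned over with LPS. Each run is the 250 bases before the start site from RefSeq (GRCm38.p6), written 5′ to 3′ on the strand of the gene, with motif matches in capitals. The motifs searched on both strands were the NBRE (AAAGGTCA), the AP-1 site (TGANTCA), a PU.1 site (GAGGAAGT) and the cyclic AMP response element CRE (TGACGTCA). PU.1 is the ETS factor that defines macrophages. Higher in the Nur77 line were Slc24a5 (chr2:125067877-125068126, plus strand), Slpi (chr2:164356508-164356757, minus strand) and Itgav (chr2:83724147-83724396, plus strand).
Slc24a5: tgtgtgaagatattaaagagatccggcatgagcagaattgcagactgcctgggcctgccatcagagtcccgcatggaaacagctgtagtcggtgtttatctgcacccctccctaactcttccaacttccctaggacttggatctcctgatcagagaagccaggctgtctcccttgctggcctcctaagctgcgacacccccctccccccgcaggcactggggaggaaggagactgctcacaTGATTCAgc
Slpi: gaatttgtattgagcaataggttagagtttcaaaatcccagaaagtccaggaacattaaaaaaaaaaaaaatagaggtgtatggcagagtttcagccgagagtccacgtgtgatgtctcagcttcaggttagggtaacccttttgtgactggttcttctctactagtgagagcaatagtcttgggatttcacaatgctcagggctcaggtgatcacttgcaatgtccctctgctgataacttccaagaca
Itgav: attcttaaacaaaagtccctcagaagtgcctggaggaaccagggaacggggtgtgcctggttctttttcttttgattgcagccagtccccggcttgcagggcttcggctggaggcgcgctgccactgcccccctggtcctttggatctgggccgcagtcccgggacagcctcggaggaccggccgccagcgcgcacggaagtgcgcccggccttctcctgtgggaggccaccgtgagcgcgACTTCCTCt

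Lower in the Nur77 line were Clec2d (chr6:129180365-129180614, plus strand), Ccr1 (chr9:123968693-123968942, minus strand), Cebpa (chr7:35119043-35119292, plus strand) and Irf1 (chr11:53769764-53770013, plus strand).
Clec2d: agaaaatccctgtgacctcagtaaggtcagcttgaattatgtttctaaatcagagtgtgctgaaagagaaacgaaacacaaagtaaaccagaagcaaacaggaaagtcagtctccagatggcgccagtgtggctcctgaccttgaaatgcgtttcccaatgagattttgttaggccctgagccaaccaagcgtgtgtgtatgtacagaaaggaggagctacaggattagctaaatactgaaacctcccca
Ccr1: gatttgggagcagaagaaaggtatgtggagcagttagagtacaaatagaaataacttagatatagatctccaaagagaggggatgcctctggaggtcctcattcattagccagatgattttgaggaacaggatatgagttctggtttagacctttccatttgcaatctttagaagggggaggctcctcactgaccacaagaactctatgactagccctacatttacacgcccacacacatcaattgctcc
Cebpa: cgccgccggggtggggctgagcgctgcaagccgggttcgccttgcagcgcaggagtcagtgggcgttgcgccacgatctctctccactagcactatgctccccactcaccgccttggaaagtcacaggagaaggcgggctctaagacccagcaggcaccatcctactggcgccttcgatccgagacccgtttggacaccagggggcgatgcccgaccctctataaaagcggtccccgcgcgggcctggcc
Irf1: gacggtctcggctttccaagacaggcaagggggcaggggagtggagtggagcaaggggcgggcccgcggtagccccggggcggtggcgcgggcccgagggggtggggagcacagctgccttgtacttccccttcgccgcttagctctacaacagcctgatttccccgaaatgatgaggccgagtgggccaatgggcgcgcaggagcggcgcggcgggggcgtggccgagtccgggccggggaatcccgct

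Among these promoters the capitals mark 1 match to the AP-1 letters, TGATTCA, whose first printed base lies 9 bases before the start of Slc24a5. The search allowed any base at the N of TGANTCA, here and in the shares below. The capitals also mark 1 PU.1 site 9 bases before the start of Itgav, read on the opposite strand. No NBRE was found in these 7 windows, which says only that those letters are not in them. Of all 32817 RefSeq promoter windows of this length, 1.34% held an NBRE, 6.75% an AP-1 site, 2.44% a PU.1 site and 1.55% a CRE. The PU.1 letters were found in 55 of 745 windows whose start site lay in a region higher in the Nur77 line (7.38%), in 39 of 1896 in a lower region (2.06%) and in 251 of 9174 in a tested region that was not called (2.74%). The AP-1 letters were found in 48 of 745 windows in higher regions (6.44%), 113 of 1896 in lower regions (5.96%) and 384 of 9174 in regions not called (4.19%). The NBRE was found in 7 of 745, 10 of 1896 and 77 of 9174 of these windows. Windows of neighbouring genes can share a region, so these shares are descriptions.

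The 4 libraries held 22.3 to 25.35 M (mega) mapped tags, and values below are normalized tags, the tags in a region's peaks scaled to a library of 10 M. The Nur77 libraries had 50277 and 50632 peaks and the GFP libraries 46452 and 47148. Peaks held 4.749 and 5.057 M normalized tags in the Nur77 line and 5.364 and 5.175 M in the GFP line, over 100.68 and 106.26 Mb against 98.198 and 98.719 Mb. The Nur77 line thus had more peaks and a longer covered length with fewer tags per kb (47.2 and 47.6 against 54.6 and 52.4), and the groups did not overlap in any of these measures. An exact permutation test (two-sided, n = 2 per line) gave p = 0.333 for each, the smallest p this design allows. Replicates of a line correlated with r = 0.976 and 0.980 across the 31330 regions, and libraries of different lines with r = 0.929 to 0.932. The header of GFP LPS replicate 1 alone lacks the setting that disables local filtering, and all 4 headers count 0 peaks removed by it. All 13 macrophage markers, among them Spi1, Csf1r and Cd14, had a peak in all 4 libraries, with summed tags of 16854 and 17916 in the Nur77 line and 20250 and 18706 in the GFP line. Of 22 markers of other cell types, 16 had no peak over the gene in any library and 5 had one in all 4, with summed tags of 288 to 339 per library.

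Acetylation differed between the lines in both directions. At a false discovery rate of 0.05 (limma on log2 of the normalized tags plus 1, Benjamini-Hochberg), 8628 of 31330 regions were called (27.5%), 3986 higher in the Nur77 line (12.7%) and 4642 lower (14.8%). The difference was over 1 on the log2 scale in 1457 higher and 1493 lower regions, and over 2 in 120 and 173. The median difference of all tested regions was -0.0014, that of called higher regions 0.81 and that of called lower regions -0.74. Called regions also differed in the length that the peaks covered: the median log2 difference in covered length was 0.47 in higher and -0.29 in lower regions, and that in tags per bp 0.31 and -0.41. Tested as tags per bp, 3861 regions were called (12.3%), 1386 higher (4.42%) and 2475 lower (7.9%). Of the 8628 regions called by tags, 3276 were called in the same direction by tags per bp and 9 in the other. Covered length alone gave 0 calls in limma (0.0%), with 5626 regions at an unadjusted p under 0.05 and a smallest adjusted p of 0.0853. The share called rose with the tags of the region, from 15.7% of regions with a mean under 30 tags to 39.8% of those with 300 to 1000, and was 32.3% in the 634 regions with over 1000. Of the tested regions, 4636 overlapped a region or peak called in an input library, and so did 1619 of the called ones.

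Of the 12 largest gains in the Nur77 line among regions with a gene over them or within 50 kb, 1 covered a RefSeq promoter window. The largest was at an intergenic region 15.2 kb from Ccdc25 (chr14:65881796-65885777), with 149.6 and 199.9 normalized tags in the Nur77 line and 8.48 and 11 in the GFP line, a log2 difference of 4.08 ± 0.21 (SE, adjusted p = 2.72e-06). Its peaks covered 3.669 and 2.97 kb in the Nur77 line and 0.5 and 0.836 kb in the GFP line. It held an HA-Nur77 peak in all 3 HA libraries. A region inside the gene model Gm17745 (chr10:93341984-93348174) had 251.0 and 272.0 tags against 17.8 and 16.13, a difference of 3.93 ± 0.15. A region inside St3gal3, which encodes a sialyltransferase (chr4:117967945-117972024), had 214.5 and 213.5 tags against 19.1 and 26.3 (3.26 ± 0.17). Smad6 encodes an inhibitor of BMP signalling, and a region inside it (chr9:63988459-63990154) had 59.8 and 69.3 tags against 6.11 and 6.63 (3.20 ± 0.27). In each of these 4 regions both Nur77 libraries were far above both GFP libraries, which the choice by largest gain implies. As tags per bp the differences near Ccdc25 and at Gm17745, St3gal3 and Smad6 were smaller, at 1.80, 1.61, 2.02 and 1.67.

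Among the other 8 of the 12 largest gains were regions at Spry4, an inhibitor of receptor tyrosine kinase signalling, at Antxr1, an anthrax toxin receptor, at Bcar3, an adaptor of adhesion signalling, at Gmds, an enzyme of fucose synthesis, and near Abi1, an actin regulator. Their log2 differences ran from 2.74 to 3.19. The region with a promoter was at Slc24a5, which encodes an ion exchanger of melanosomes (chr2:125066702-125075430), with 512.6 and 594.5 tags against 90.7 and 73.6 (2.80 ± 0.11, adjusted p = 8.24e-07). Before LPS the same region had 239.6 and 259.4 tags in the Nur77 line and 33.3 and 43.1 in the GFP line, a difference of 2.72. The Nur77 libraries were thus above the GFP libraries with and without LPS. As tags per bp the Slc24a5 difference after LPS was smaller, at 1.15. The regions at Slc24a5, Bcar3 and Gmds overlapped a region called in input.

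**Figure D1:**
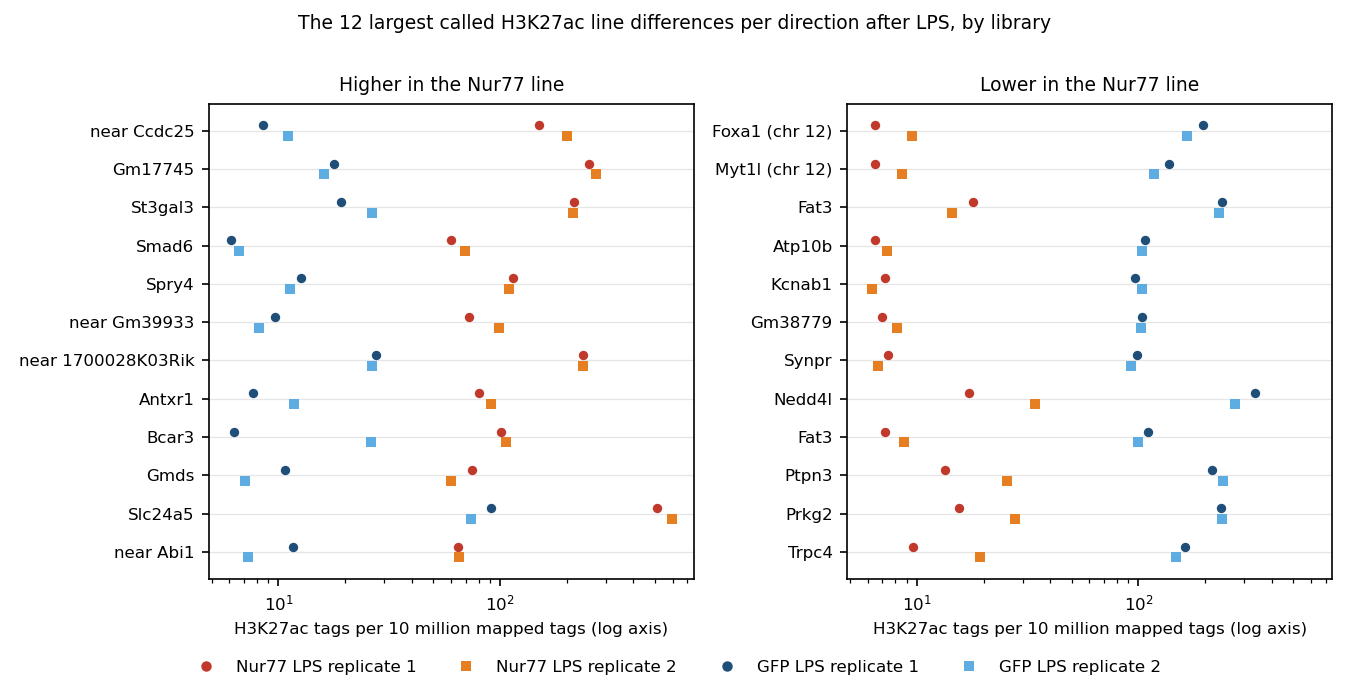
Normalized H3K27ac tags (x axis, log scale) in each of the 4 LPS libraries at the 12 regions with the largest called gain (left) and the 12 with the largest called loss (right) in the Nur77 line; circles are replicate 1 and squares replicate 2, red and orange the Nur77 line and blue shades the GFP line. The libraries of the lines do not overlap in any of the 24 regions, which were chosen for their large line difference in these same libraries. The low line sits mostly between 6 and 30 tags.

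Under the same rule the largest loss was at Foxa1, a pioneer factor of endoderm, on chromosome 12 (chr12:57537736-57542199), with 6.49 and 9.55 tags in the Nur77 line and 195.1 and 165.1 in the GFP line (-4.29 ± 0.22). Regions inside Myt1l, a neuronal transcription factor also on chromosome 12, and Fat3, a large cadherin of neurons, differed by -3.87 ± 0.23 and -3.73 ± 0.17. Centred on the median of chromosome 12, which was itself lower in the Nur77 line (below), the differences at Foxa1 and Myt1l were -3.65 and -3.23. A region inside Atp10b, a lipid flippase, had 6.49 and 7.31 tags against 107.1 and 103.9 (-3.70 ± 0.24), and a region inside Kcnab1, a potassium channel subunit, had 7.17 and 6.30 against 96.8 and 104.3 (-3.66 ± 0.25). The remaining ones lay at Gm38779, Synpr, Nedd4l, Ptpn3, Prkg2, Trpc4 and a second site in Fat3, with differences from -3.56 to -3.35. None of the 12 covered a RefSeq promoter window of its gene.

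Cd84, which encodes an immune receptor of the SLAM family (chr1:171840119-171852311), was singled out after its values were seen. It had 56.7 and 52.2 tags in the Nur77 line against 601.6 and 552.0 in the GFP line (-3.32 ± 0.11, adjusted p = 2.33e-07), and 79.0 and 67.2 against 866.9 and 957.7 before LPS. The Cd84 region was therefore high in the 4 GFP libraries and low in the 4 Nur77 libraries, with or without LPS. As tags per bp the Cd84 difference after LPS was smaller, at -1.295. By change in tags per bp, the leading losses included regions near Wdr11 (chr7:129572928-129578100, -1.93) and elsewhere on chromosome 7 (chr7:129480529-129487192, -1.94), besides those at Myt1l, Nedd4l and Prkg2. The leading gains by tags per bp were those near Ccdc25, at St3gal3, Smad6 and Spry4, and one near Gm5782 (1.71).

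Several differences ran over stretches of neighbouring regions. By a rule set after the values were seen, 81 runs of at least 6 neighbouring tested regions were called in the same direction throughout: 28 higher, 27 lower outside chromosome 12 and 26 lower on chromosome 12. The run with the most negative median of the 81 held 10 regions on chromosome 7, from base 128737763 to base 129597688, around Plpp4 and Wdr11, with a median of -2.37. The strongest region of that run by tags (chr7:129458581-129479826) had 378.7 and 426.4 tags in the Nur77 line and 3070.7 and 2726.2 in the GFP line, and 321.7 and 333.8 against 1960.2 and 2091.2 before LPS. It overlapped a region called in input, whereas the other 9 regions of the run did not. Pol II was lower in the Nur77 line at 7 of the 7 regions of the run with a Pol II value. Those starting at bases 128737763 and 128743268 had the same Pol II value (-0.161). Of all regions with lower H3K27ac and a Pol II value, 88.2% had a negative Pol II difference.

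Runs of higher regions lay over Bcar3 (12 regions, median 1.30), over Cdk17 and Elk3 (11, 1.60), over the lectin genes Asgr2, Mgl2 and Clec10a (7, 1.34), over Smad3 and Smad6 (7, 1.02) and over Irf8, which encodes a factor of myeloid identity (6, 1.11). The Cd300 gene cluster, which encodes paired immune receptors, formed a run of 6 higher regions (median 0.56), and so did Mef2c (0.86). Lower runs lay over the Ms4a cluster of membrane proteins (Ms4a7 to Ms4a6d, 6 regions, median -2.23) and over the Clec2 and Klrb1 lectin cluster (6, -1.41). Others lay over the Hoxc cluster of body-plan genes (6, -1.50), at Gadd45a (9, -1.39) and over 764.7 kb around Gata3 (7, -1.29). A run of 8 lower regions (median -0.90) spanned 1834.3 kb with 24 genes, among them Abi2, Raph1, Cd28, Ctla4, Icos and Pard3b. The rule set no limit on the distance between neighbours, so a long run need not lie at each gene it spans. Of the regions in the Bcar3 run, 11 of 12 overlapped a region called in input, against 0 of 11 in the Elk3 run and 0 of 6 in the Ms4a run. In the Ms4a, Hoxc, Elk3, Bcar3 and Smad6 runs every region with an untreated value had the same sign before LPS. In the Irf8 run 5 of 6 had it. Of all called regions with an untreated value, 94.7% had the same sign.

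Chromosome 12 stood apart from the other chromosomes. The median difference of its 1410 tested regions was -0.58, which is 0.669 times the GFP level, while the medians of the other 19 chromosomes ran from -0.078 to 0.074, with Y, which had 21 tested regions, left aside. On chromosome 12, 746 regions were lower and 42 higher (52.9% and 2.98%), and the share lower on these 19 ran from 8.73 to 16.8% (4.76% on Y). Each of the 12 bins of 10 Mb along chromosome 12 with at least 20 regions had a median between -0.71 and -0.38, below every one of 248 bins elsewhere (-0.37 to 0.30). The same shift was measured before LPS (-0.56) and in Pol II after LPS (-0.56). Input libraries, which hold no antibody enrichment, differed as well: 28.6 and 34.9% of the regions called in the GFP inputs lay on chromosome 12 (3882 and 3250 regions) and 4.35 and 4.25% of those called in the Nur77 inputs (220 and 381). The SD between replicates of the chromosome 12 median against the other chromosomes was 0.033. When each library was centred on its own median per chromosome, 210 regions of chromosome 12 were higher and 175 lower, and 8003 regions were called in all (25.5%). The input values move with those of H3K27ac, and their part in the result was not tested. The line and its chromosome 12 cannot be told apart from the construct. Centred values are given below beside the list members of chromosome 12.

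**Figure D2:**
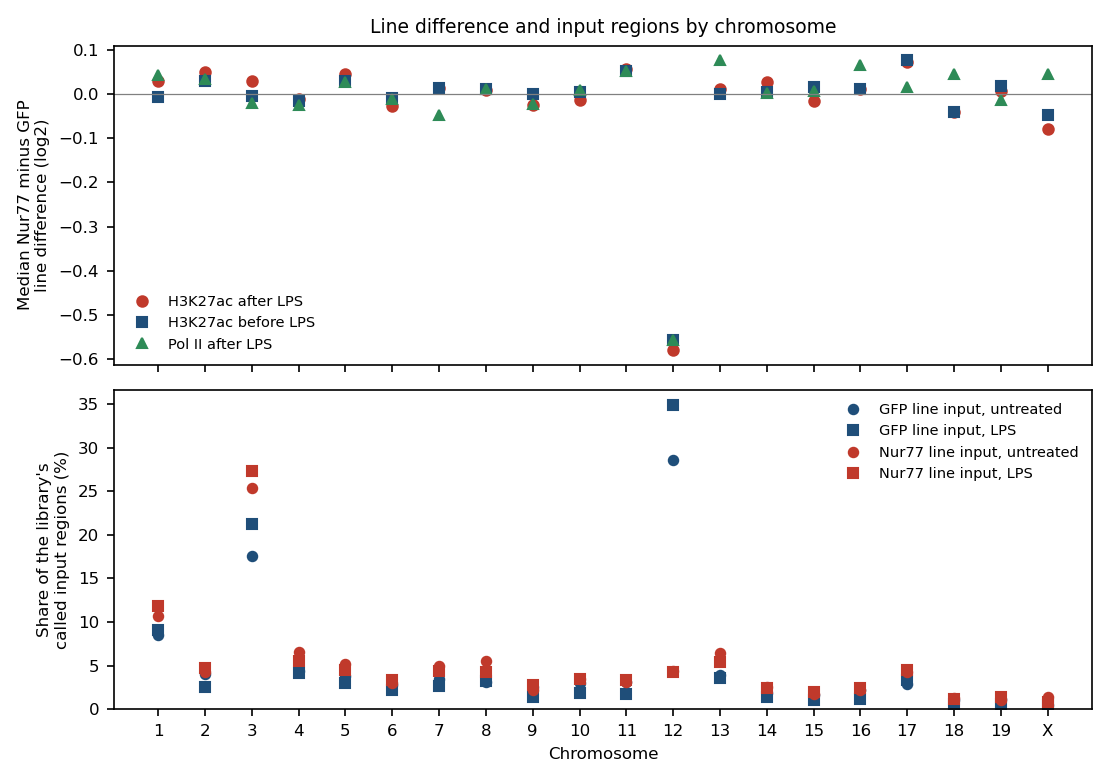
Top, median log2 difference between the Nur77 and the GFP line (y axis) per chromosome (x axis) for H3K27ac after LPS, H3K27ac before LPS and Pol II after LPS. Bottom, share of the regions called in each of the 4 input libraries that lies on each chromosome (y axis, percent). Chromosome 12 lies at -0.58, -0.56 and -0.56 and holds 28.6 and 34.9% of the GFP input regions, against under 5% of the Nur77 input regions.

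The gene that encodes Nur77 had little acetylation in any library. Over Nr4a1 were 3 tested regions, all weak: that across the end of the gene span (chr15:101253725-101254830) had 15.0 and 22.5 tags in the Nur77 line and 9.07 and 14.8 in the GFP line, the middle one (chr15:101261954-101263237) 26.6 and 22.5 against 7.69 and 17.2, and that over a promoter window (chr15:101265933-101266766) 13.7 and 18.9 against 13.4 and 14.4. None was called, at 0.68 ± 0.36, 1.07 ± 0.39 (adjusted p = 0.0627) and 0.25 ± 0.32. The middle region was called higher as tags per bp (0.73, adjusted p = 0.00907) and with a replicate block (0.0159). ChIP tags do not measure the transcript of the inducible construct, so these regions do not check the label. For the related receptors, Nr4a2 had 257.02 and 249.2 tags in the region over its promoter against 257.8 and 253.0 (0.05 ± 0.09, not called). Nr4a3 had 375.5 and 325.0 against 500.0 and 432.5 (-0.35 ± 0.12, adjusted p = 0.0442), a call that was lost without Nur77 replicate 2 (adjusted p = 0.262) or without GFP replicate 1 (0.211).

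Of the 10 receptor genes of the list, 2 were higher, 2 lower and the median was -0.005, beside 12.7% higher and 14.8% lower over all tested regions. Ppard, a lipid-sensing receptor, had 637.3 and 581.7 tags in a region inside the gene against 415.6 and 354.4 (0.72 ± 0.11). Rxra, the shared dimer partner of many nuclear receptors, had 238.5 and 231.8 against 180.3 and 170.4 (0.48 ± 0.10). Nr3c1, the glucocorticoid receptor, was lower, with 225.5 and 228.7 against 373.6 and 349.1 (-0.61 ± 0.09), whereas before LPS its line difference was 0.02. All members of this and the following lists are represented by their lead region, the tested region over the gene with the highest mean tags, or the nearest within 50 kb. Lead regions hold more tags than most: the median tested region had 58.1. Of all regions with 300 to 1000 tags 13.7% were higher and 26.1% lower. The counts of each list below stand beside 12.7% higher, 14.8% lower and 27.5% called over all tested regions, and carry no test. Across the lists 108 lead regions were called by tags and 51 as tags per bp. Among the genes named in the text, the call was lost as tags per bp at Bcar3, Gmds, Gm40121, Nr4a3, Rxra, Fosb, Csrnp1, Ccl5, Csf1, Ikbke, Socs3, Irf1, Irf8, Cd86, Clec10a, Clec2d, Fabp4, Fabp5, Aco1, Ogdh, Dlst, Dld, Hdac1, Cd44 and Ywhaz.

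Of 17 regions of AP-1 family genes, whose products pair as dimers on AP-1 sites, 2 were higher and 3 lower, with a median of -0.10. Fosl1, a FOS-related subunit, was the most raised, with 288.6 and 365.8 tags against 145.17 and 185.2 (1.04 ± 0.13, adjusted p = 0.000244). Jund was lower, with 393.2 and 488.9 against 749.1 and 772.3 (-0.73 ± 0.09), and so was Atf3, a repressor within the family, with 1112.7 and 1046.1 against 1872.6 and 1594.8 (-0.62 ± 0.11). Batf on chromosome 12 had 299.4 and 307.7 against 637.1 and 604.4 (-0.97 ± 0.08, and -0.33 when centred, adjusted p = 0.0201). Fosb, at 0.73 ± 0.18, lost its call without Nur77 replicate 1 (adjusted p = 0.0649) or without GFP replicate 2 (0.0565). The subunits Jun, Junb and Fosl2 were not called, at -0.05, -0.24 and -0.06. Fos and Jdp2 share chromosome 12 with Batf and were not called at -0.25 and -0.09. When centred, Fos was at 0.39 (adjusted p = 0.0331) and Jdp2 at 0.56 (0.00584), so the sign of both turned and the list then had 4 higher and 3 lower calls.

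Immediate-early genes outside AP-1 were called lower in 9 and higher in 4 of 26 regions (median -0.06). Over all tested regions 14.8% were lower and 12.7% higher. Klf10, a transforming growth factor beta response factor, had 168.6 and 203.5 tags against 375.7 and 365.9 (-0.94 ± 0.09). Gadd45b, a stress and survival gene, had 570.6 and 767.6 against 1270.2 and 1238.1 (-0.86 ± 0.11). Rhob, a small GTPase on chromosome 12, had 256.4 and 258.4 against 649.3 and 640.8 (-1.26 ± 0.08, and -0.62 when centred, adjusted p = 0.00054). On the higher side were Egr1 and Egr3, zinc finger factors of the early response: Egr1 had 657.89 and 621.2 tags against 414.4 and 402.6 (0.70 ± 0.09), and Egr3 360.3 and 387.4 against 244.2 and 235.6 (0.70 ± 0.08). Srf, the factor that drives many of these genes, was also higher (0.59 ± 0.08). Of the 13 calls, 3 higher and 6 lower held without each library in turn.

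Cytokine and chemokine genes were higher in 6 and lower in 3 of 23 regions, with a median of 0.16. Il27, a cytokine that restrains T cells, had 555.8 and 565.9 tags against 361.5 and 326.6 (0.76 ± 0.09). Ccl5, a T cell attractant, had 300.7 and 333.3 against 205.89 and 194.25 (0.72 ± 0.09), although its tags per bp did not differ (0.00). Ccl22, a chemokine of alternatively activated macrophages, had a nearby region at 39.9 and 69.1 tags against 12 and 18.8 (1.80 ± 0.31). Csf1, the growth factor of macrophages, was lower, with 52.8 and 51.8 against 104.5 and 112.7 (-0.98 ± 0.14), and so were the monocyte attractants Ccl2 (-0.53 ± 0.09) and Ccl7 (-1.73 ± 0.30). The region over Tnf, Ltb and Lta, at 10736 and 11570 against 12719 and 11476 tags, was among the 3 strongest regions of all and was not called (-0.06 ± 0.16). Il6, Il1b and Il12b were not called either, at -0.24, 0.39 and -0.45.

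NF-kB pathway genes were called in 9 of 30 regions, 5 higher and 4 lower (median -0.014), beside 27.5% of all tested regions. Higher were Ikbke, a kinase of the interferon arm, with 1254.7 and 1458.0 tags against 924.5 and 893.0 (0.63 ± 0.09), and Socs3, a feedback inhibitor of cytokine signalling, with 1146.8 and 1409.5 against 883.0 and 787.6 (0.67 ± 0.10). Nfkbia, which encodes the inhibitor IkB-alpha, had 1182.8 and 1279.7 against 2238.3 and 2030.8 (-0.73 ± 0.09), and Tnfaip2 2522.1 and 2752.8 against 4734.2 and 4451.6 (-0.74 ± 0.11). These genes lie on chromosome 12, and when centred their differences were -0.09 (adjusted p = 0.563) and -0.10 (0.595). The subunits Rela, Relb, Rel, Nfkb1 and Nfkb2 were not called, at -0.05, -0.20, -0.02, -0.05 and -0.14. Of 21 interferon response regions, 6 were higher and 2 lower (median -0.03). Oasl1, an antiviral gene, had 684.3 and 662.0 tags against 383.8 and 377.7 (0.88 ± 0.08), and Irf8 161.4 and 183.8 against 107.7 and 103.9 (0.76 ± 0.10), although as tags per bp Irf8 was at 0.09 and not called (adjusted p = 0.713). Irf1 was lower, with 168.6 and 165.6 against 296.3 and 270.0 (-0.70 ± 0.10), as was Gbp2, an interferon-induced GTPase, with 38.5 and 52.2 against 97.2 and 102.3 (-1.08 ± 0.16).

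Of 24 regions of macrophage lineage genes, 0 were higher and 9 lower, with a median of -0.26. Over all tested regions 12.7% were higher and 14.8% lower. The share lower was larger in regions with more tags, 19.9% at 100 to 300 and 26.1% at 300 to 1000. The shares higher there were 14.8 and 13.7%. As tags per bp, 0 were higher and 3 lower. Cebpa, a myeloid transcription factor, had 54.2 and 70.5 tags against 125.8 and 142.3 (-1.04 ± 0.14). Tfec, a factor of the MITF family, had 117.3 and 118.6 against 193.7 and 186.7 (-0.63 ± 0.10), and the costimulator Cd86 125.2 and 152.5 against 216.4 and 210.8 (-0.57 ± 0.10). Spi1, which encodes PU.1, had 1157.3 and 1382.5 against 1770.4 and 1688.7 (-0.39 ± 0.09), a call that was lost without Nur77 replicate 1 (adjusted p = 0.0968). Most of the 9 lower calls did not hold without each library in turn, fits that leave 1 library in a line. The median of the list was -0.22 without Nur77 replicate 1 and -0.21 without Nur77 replicate 2. It was -0.17 without GFP replicate 1 and -0.28 without GFP replicate 2. In these alternatives 1 region was higher without Nur77 replicate 2, without GFP replicate 1 and when centred, and 2 were higher with a replicate block, which gave 13 lower. Csf1r, Itgam, Cd14 and Tlr4 were not called, at 0.21, -0.07, 0.11 and -0.31.

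Chemokine receptor and lectin genes were higher in 5 and lower in 6 of 23 regions (median -0.04). Clec4n, which encodes the fungal receptor dectin-2, had 205.74 and 207.6 tags against 34.9 and 48.2 (2.36 ± 0.16, adjusted p = 7.63e-06). Clec10a and Mgl2, which encode galactose-binding lectins of alternatively activated macrophages, were higher, Clec10a with 92.9 and 137.1 tags against 23.5 and 30.1 and Mgl2 with 37.4 and 35.1 against 15 and 13.5. C5ar1, the complement C5a receptor, had 1372.0 and 1470.8 against 1024.6 and 985.1 (0.56 ± 0.08). Ccr1, a receptor for inflammatory chemokines, had 30.5 and 34.5 against 119.7 and 129.1 (-1.85 ± 0.15), and Clec2d, a ligand of NK cell receptors, 24.4 and 26.2 against 102.2 and 94.1 (-1.86 ± 0.17). As tags per bp Clec2d was at -0.31 and not called (adjusted p = 0.246). Ccrl2, a chemokine-binding receptor, was lower as well (-0.60 ± 0.10). Clec4d and Clec4e, which share a region, and Clec5a were not called, each at -0.04.

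Lysosome and lipid genes were lower in 9 and higher in 1 of 25 regions (median -0.16). Over all tested regions 14.8% were lower and 12.7% higher. As tags per bp 4 of the list were lower and 0 higher, beside 7.9% and 4.42% of all tested regions. Lpl, lipoprotein lipase, had 95.85 and 84.7 tags against 336.5 and 330.2 (-1.82 ± 0.11, adjusted p = 5.9e-06), and the fatty acid carriers Fabp5 and Fabp4 differed by -0.99 ± 0.12 and -0.72 ± 0.14, and by -0.26 and -0.44 as tags per bp, where neither was called (adjusted p = 0.292 and 0.0606). Gpnmb, a lysosomal glycoprotein, had 3130.5 and 3567.0 against 5887.9 and 5631.0 (-0.73 ± 0.11), and Ctss, a lysosomal protease, 1123.5 and 1274.4 against 1794.1 and 1796.1 (-0.53 ± 0.09). Npc2, a cholesterol carrier on chromosome 12, was at -0.64 ± 0.08, a call that was lost when centred (adjusted p = 0.989). Without each library in turn, 6 of the 9 lower calls held. The cholesterol exporters Abca1 and Abcg1 were not called, at -0.15 and 0.11.

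Of 23 regions of the citric acid cycle, 3 were lower and 1 higher. The lower ones included Dlst and Dld on chromosome 12 (-0.50 ± 0.09 and -0.47 ± 0.10), whose centred differences turned to 0.14 and 0.17. Aco1 was lower at -0.25 and lost its call without any 1 of the 4 libraries, and Ogdh was higher at 0.33 ± 0.08, lost its call without GFP replicate 1 (adjusted p = 0.0743) and was at -0.20 as tags per bp. Among 27 regions of acetylation enzymes and readers, 4 were higher and 3 lower: the bromodomain reader Brd2 had 1453.0 and 1723.7 tags against 2531.2 and 2379.7 (-0.57 ± 0.10), and Hdac1 722.6 and 755.4 against 630.3 and 583.8 (0.34 ± 0.08). Rcor1, a corepressor on chromosome 12, was at -0.79 ± 0.08, and at -0.15 when centred (adjusted p = 0.230). The acetyltransferase genes Ep300 and Crebbp were not called, at -0.16 and -0.04.

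Of 24 matrix, adhesion and protease regions, 4 were higher and 6 lower. Itgav, an integrin subunit, had 1014.8 and 1113.3 tags against 518.5 and 508.18 (1.11 ± 0.08, adjusted p = 1.1e-05), and Slpi, a secreted protease inhibitor, 122.5 and 121.7 against 51.1 and 63.4 (1.15 ± 0.15). Mmp12, macrophage elastase, had a nearby region at 13.7 and 18.7 tags against 69.8 and 59.2 (-1.88 ± 0.24), and the adhesion receptor Cd44 was lower (-0.45 ± 0.08). Housekeeping genes, the comparison list, were called in 5 of 20 regions, 2 higher and 3 lower, beside 27.5% of all tested regions. When centred per chromosome 0 were higher and 4 lower. Ywhaz, a signalling adaptor, had 564.3 and 557.2 tags against 825.7 and 733.4 (-0.41 ± 0.09). Of 15 regions assigned to genes of other cell types, 2 were higher and 2 lower. The region nearest to Alb, 94.7 and 117.0 tags against 18.3 and 27.2 (2.24 ± 0.21), lies inside Afp, and that in Cdh1 had 12.8 and 19.7 against 49.5 and 45.7 (-1.47 ± 0.26).

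**Figure D3:**
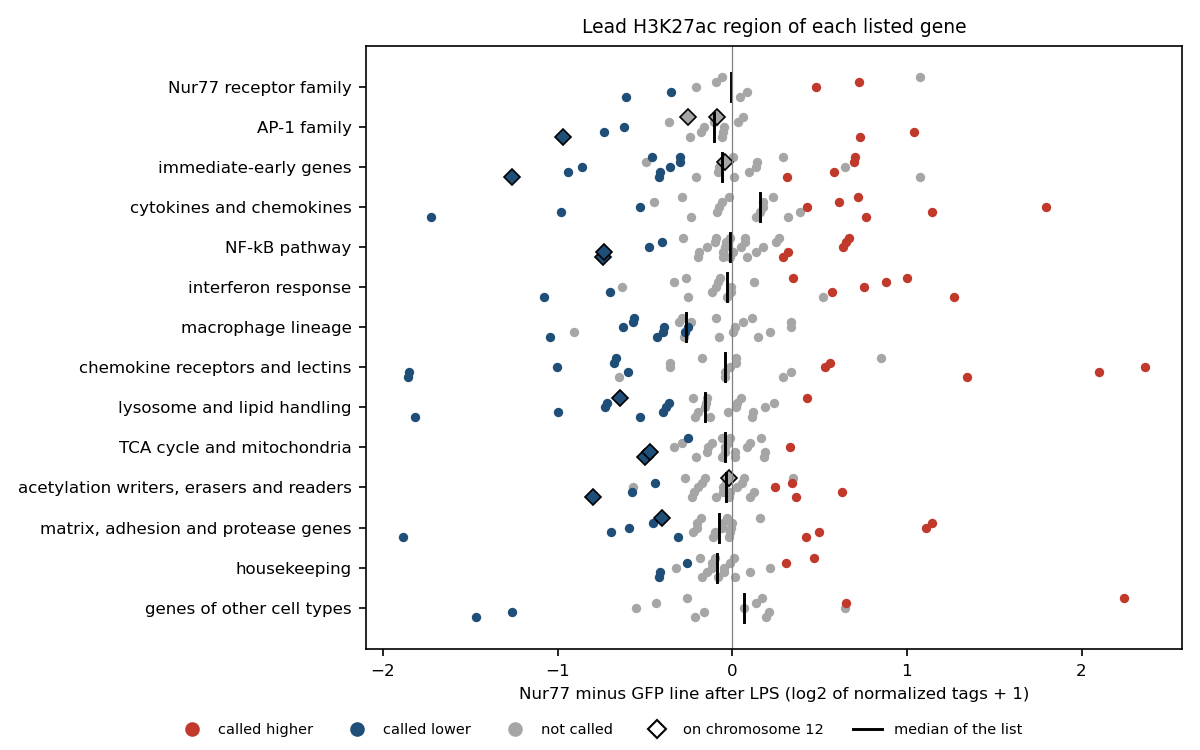
Log2 difference between the Nur77 and the GFP line after LPS (x axis) of the lead H3K27ac region of each listed gene, in 14 lists (y axis); red and blue points were called higher and lower, grey points were not called, diamonds lie on chromosome 12 and the bar is the median of the list. No point of the macrophage lineage list is called higher and 9 are called lower, and receptors and lectins span from -1.86 to 2.36.

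Most regions called after LPS differed in the same direction before it. The untreated libraries, none of which enters the LPS contrast, were fitted with the LPS libraries over 27094 regions with a peak in all 8, and 8332 regions were called before LPS (30.8%), 4176 higher and 4156 lower, and 9757 after LPS in the same fit (36.0%). Regions merged over 8 libraries can be wider than those of the 4 LPS libraries, as at Nr4a2, Irf8 and Fabp5, for which no untreated value is given. Across these regions the line differences before and after LPS correlated with r = 0.80, as a description over regions that share a line. Of the 8628 regions called after LPS, 7997 had an untreated contrast, of which 7577 (94.7%) had the same sign and 5420 (67.8%) were called in the same direction. Among regions not called after LPS, 69.6% had the same sign and 15.0% were called in the same direction before it. Itgav, for example, had 882.1 and 925.0 tags against 391.6 and 409.1 before LPS (1.21), Ccr1 49.2 and 47.9 against 144.7 and 167.2 (-1.62) and Ikbke 634.96 and 672.75 against 294.5 and 260.51 (1.27).

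A change of the line difference with LPS was called in 161 of 27094 regions (0.594%), 129 of which were lower and 32 higher after LPS than before, and 3508 had an unadjusted p under 0.05. The count changed with single libraries: leaving 1 out gave 1 to 182 calls, with 1 without untreated Nur77 replicate 2, 5 without untreated GFP replicate 2, 7 without untreated Nur77 replicate 1, 32 without GFP LPS replicate 1, 38 without untreated GFP replicate 1 and 44 without Nur77 LPS replicate 1. As tags per bp it was 0 in limma. At Klf10 the untreated libraries had 428.5 and 463.3 tags in the Nur77 line and 369.8 and 339.7 in the GFP line, and the LPS libraries 168.6 and 203.5 against 375.7 and 365.9, so the line difference moved by -1.30. The Nur77 libraries were thus above the GFP libraries at Klf10 before LPS and below them after. Irf1 turned over in the same manner, from 172.7 and 161.7 against 128.5 and 134.6 before LPS to 168.6 and 165.6 against 296.3 and 270.0 after it (-1.07). Csrnp1, an early nuclear protein, went from 442.1 and 458.0 against 329.3 and 313.6 to 660.1 and 703.0 against 918.4 and 902.3 (-0.88). A region inside Gm40121 went the other way, from 14.46 and 12.94 against 90.0 and 118.1 to 223.7 and 204.6 against 403.0 and 362.9 (2.01), so that the Nur77 libraries were below the GFP libraries at both times, by less after LPS.

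**Figure D4:**
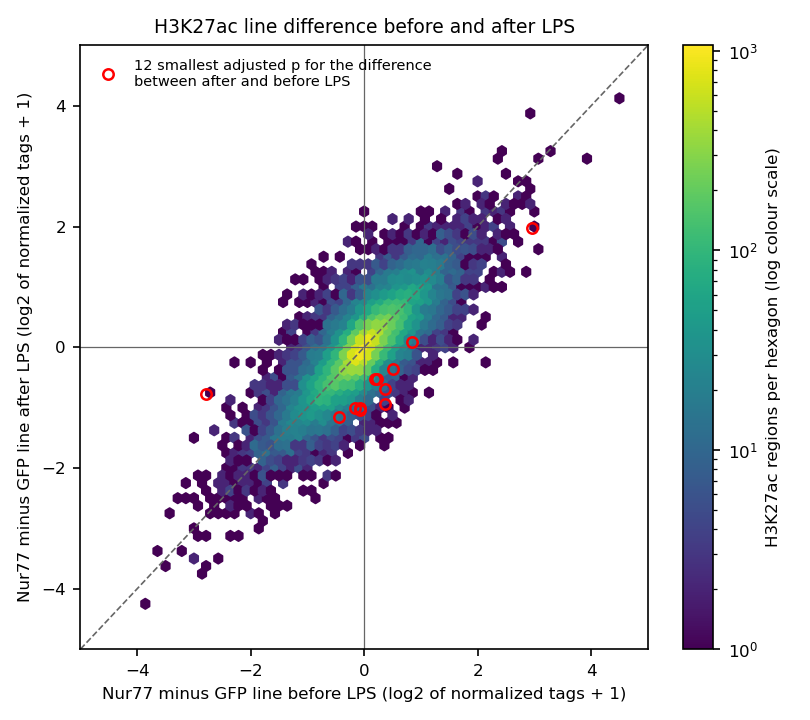
Log2 difference between the Nur77 and the GFP line before LPS (x axis) and after LPS (y axis) in 27094 regions, as hexagons coloured by the number of regions (log colour scale), with the line of equality dashed. Red circles are the 12 regions with the smallest adjusted p for a change with LPS. The cloud follows the dashed line (r = 0.80), and most red circles lie below it.

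Pol II after LPS differed with the same sign as H3K27ac in most regions. In its own test 1 of 20867 Pol II regions was called (0.00479%) and 2993 had an unadjusted p under 0.05; without 1 library the count was 2 to 136, the highest without Nur77 replicate 2. With the replicate number as a block it was 1804. Over the 19370 H3K27ac regions that overlapped a tested Pol II region, the line differences of the marks correlated with r = 0.70, as a description over regions that share the lines. Of 2277 regions with higher H3K27ac, 92.7% had a positive Pol II difference (median 0.71), and of 3318 with lower H3K27ac, 88.2% had a negative one (median -0.51). Over all 19370 regions 51.2% were positive, and over those not called for H3K27ac 53.9%. At Itgav the Pol II difference was 1.09, at Oasl1 1.15, at Ccr1 -2.55, at Lpl -2.07 and at Klf10 -1.27. Egr1 went against this pattern, with a Pol II difference of -0.69 at higher H3K27ac. None of these Pol II differences passed the test without a block.

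HA-Nur77 peaks after LPS, mapped in the Nur77 line only, lay at regions with more tags (median 109.6 with HA, 26.3 without), so shares are also given by tags. Of 12499 tested regions with an HA peak in all 3 HA libraries, 17.8% were higher and 17.7% lower in the Nur77 line, and of 10106 without an HA peak in any library 9.14% and 10.3%. The median difference was 0.014 with and 0.017 without HA. The other 8725 tested regions had HA in 1 or 2 libraries, and 9.59% of them were higher and 15.9% lower (median -0.040). They are left out of the shares by tags. Among regions with a mean of 30 to 100 tags, 20.05% with HA and 11.1% without were higher, while 15.2 and 14.4% were lower. At 100 to 300 tags 19.2 and 7.82% were higher and 20.2 and 20.2% lower, and at 300 tags or more 16.3 and 6.07% were higher and 25.02 and 23.6% lower. In each range of tags the share of higher regions was larger with HA-Nur77 in all 3 libraries than with none. The shares of lower regions lay within 3 percentage points of each other. HA was mapped only in the line whose regions are counted as higher, so the sets are not independent of the line difference, and these shares carry no test.

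Of 8455 tested regions over a RefSeq promoter window (250 bases before to 50 after a start), 6.78% were higher and 16.0% lower, with a median of -0.056. Of 22875 other regions, 14.9% were higher and 14.4% lower, with a median of 0.039. Regions away from promoters with HA in all 3 libraries were higher in 20.5% and lower in 17.5%. Those without HA in any library were higher in 10.5% and lower in 9.48%.

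**Figure D5:**
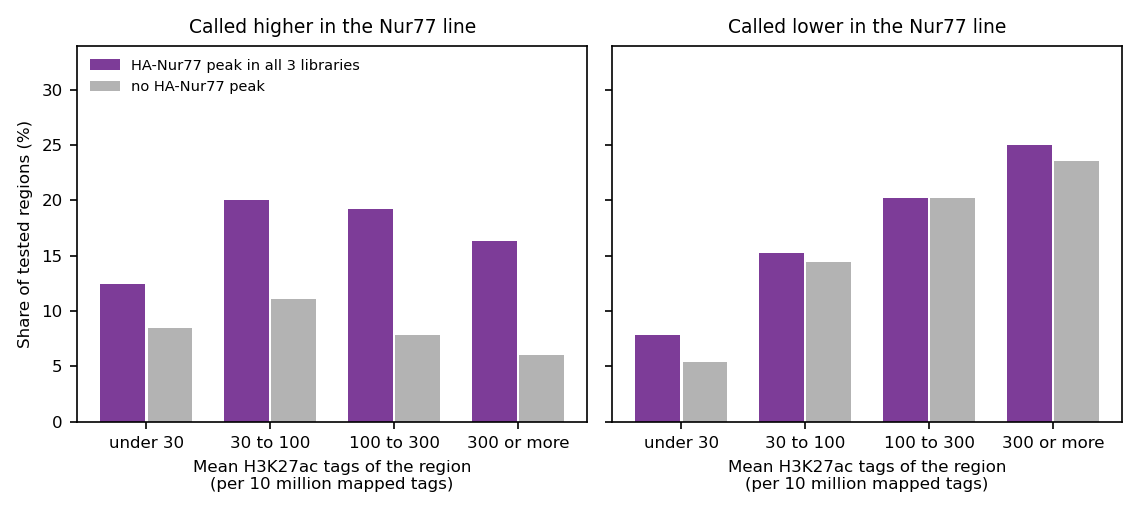
Share of tested H3K27ac regions called higher (left) and lower (right) in the Nur77 line after LPS (y axis, percent) by mean tags of the region (x axis), for regions with an HA-Nur77 peak in all 3 HA libraries (purple) and with none (grey). Higher regions make up 12.4 to 20.05% with HA and 6.07 to 11.1% without. Regions with HA in 1 or 2 libraries are not shown.

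Regions called in 1 line only were mostly weak. A peak in both Nur77 libraries and in no GFP library was found at 3275 regions (4.86%), with a median of 9.89 tags and 0.704 kb, and the reverse at 2399 (3.56%), with a median of 10.5 tags. Only 4 and 3 of them reached 100 tags. The order of the counts turned when the 4 peak lists were cut to equal length, with 2524 Nur77-only and 2767 GFP-only regions. On chromosome 12 lay 402 of the 2399 GFP-only regions and 42 of the 3275 Nur77-only ones. Of the Nur77-only regions 18.5% and of the GFP-only ones 24.7% had the same pattern before LPS. The strongest Nur77-only regions were at the flank of Tyk2, a kinase of interferon receptors, with 109.9 and 157.6 tags (chr9:21098051-21103168), 3.73 kb from the pheromone receptor gene Vmn1r61 with 123.2 and 134.1, inside Gm32543 with 126.1 and 122.5, and at the joining segments of the immunoglobulin heavy chain locus Igh with 111.3 and 127.8. The regions at Tyk2 and Igh overlapped a region or peak called in input. Before LPS the Tyk2 region had 260.0 and 271.6 tags in the Nur77 line and 11 and 13.6 in the GFP line. A weak peak was thus called there in GFP cells without LPS. The Igh region lies on chromosome 12 and was called in the line whose chromosome 12 median was lower, with 259.1 and 265.4 tags before LPS and no peak in the untreated GFP libraries. The strongest GFP-only regions were inside Tex37, a testis gene, with 138.3 and 133.9 tags, near Hpcal4, a neuronal calcium sensor, with 135.9 and 126.4, and inside Prkg2, a cyclic GMP kinase, with 113.6 and 106.3, next to the lower region of that gene described above.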

How the data were processed

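H3K27ac, Pol II, HA and input ChIP libraries of doxycycline-inducible RAW 264.7 lines were used. Per the submitters' processing notes, the authors aligned reads with HISAT2 2.1.0 to mm10. Per the file headers, peaks were called per library with HOMER (version not given in the sources used here), without an input. The signal value of a peak, deposited by the authors, is its normalized tag count, the tags in the peak scaled to 10 M (mega) mapped tags. It is not a raw count, so no count model was used.

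Peaks of the 4 LPS H3K27ac libraries sharing at least 1 bp were merged, and tags and covered length were summed per library. Regions with a peak in all 4 libraries were tested with limma 3.58.1 (trend, R 4.3.3) on log2 of tags plus 1, after trimmed mean of M-values scaling (30% of M and 5% of A trimmed), with Benjamini-Hochberg adjustment at 0.05. Tables were joined with Python 3.11.15 and pandas 2.3.3. The script was tested on simulated data. Library totals were compared by exact permutation. Depth was 22.3 to 25.35 M mapped tags per LPS H3K27ac library, which limits weak regions most.

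Gene positions and promoter windows come from RefSeq (GRCm38.p6, the same assembly as mm10). A region was assigned to a gene it overlaps, with a 1 kb flank, or to the nearest within 50 kb. The named genes are the 12 largest called changes per direction, the 3 smallest p of each list, every region over Nr4a1, Nr4a2 and Nr4a3, the 5 strongest regions per line called in that line only, the 5 largest changes per direction in tags per bp and the 3 strongest regions. Other genes named come from the lists, or were chosen after their values were seen. The members and the lists were chosen with earlier results of these data known. The lists are the Nur77 receptor family, the AP-1 family, immediate-early genes, cytokines and chemokines, the NF-kB pathway, interferon response, macrophage lineage, chemokine receptors and lectins, lysosome and lipid handling, the citric acid cycle and mitochondria, acetylation enzymes and readers, matrix and proteases, housekeeping genes, and genes of other cell types. No tested region was found for Maf, Il12a, Ifit1, Mx1, Rsad2, Marco, Cd163, Ackr3, Pdk3, Pdk4, Timp3 and 6 genes of other cell types, and Rigi had no match. Some list members are counted but not reported here by name. Alternatives were tags per bp, other scaling, a pseudocount of 10, minimum tags, other merges, all 8 libraries, a replicate block, leaving out each library, leaving out input regions, and limma without trend.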

Additional observations from a re-analysis of the deposited data

Results flagged for a closer look

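The line difference changed with LPS, by a test of the difference itself (limma, all 8 H3K27ac libraries, Benjamini-Hochberg), in 161 of 27094 regions. The 12 with the smallest adjusted p are given here as the change in the log2 difference between the Nur77 and the GFP line, after LPS minus before. A region inside Gm40121 had a change of 2.01, with the Nur77 libraries below the GFP libraries at both times. The other 11 were negative. Klf10, Irf1, Csrnp1, Gramd1b and the region of Slc6a13 and Slc6a12, which encode amino acid transporters, went from higher to lower in the Nur77 line, with changes of -1.30, -1.07, -0.878, -0.756 and -0.706. At Gramd1b, a gene of sterol transport, the libraries went from 1122.1 and 1067.4 tags in the Nur77 line against 931.6 and 974.2 in the GFP line to 1480.8 and 1551.5 against 2391.9 and 2149.9.

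Mt2, which encodes a metal-binding metallothionein, and regions at Nav2, Gm41308 and Dpys were lower in the Nur77 line after LPS by more than before it, with changes of -0.932, -0.853, -0.964 and -0.71. Mt2 had 609.7 and 664.2 tags against 693.2 and 672.2 before LPS and 277.7 and 333.1 against 624.7 and 643.0 after it. Gm37004 stayed higher in the Nur77 line with a smaller difference (-0.98), and Btd, the biotinidase gene, was higher before LPS and not called after it (-0.755). The number of such regions was between 1 and 182 when 1 of the 8 libraries was left out, and 0 for tags per bp, so the list changes with single libraries.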

How the results depend on the processing

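The count of called regions (8628) was 3861 as tags per bp and 4629 by limma without trend, and ran from 6055 to 11849 in the other alternatives. It was 6281 to 7749 when 1 library was left out. Covered length gave 0 calls in limma in each alternative run, with 4066 to 5626 regions at an unadjusted p under 0.05. As tags per bp, 51 list members were called in place of 108 (84 to 108 with 1 library left out), 3428 regions before LPS in place of 8332, and 0 in place of 161 for the change with LPS. The last was 68 without scaling factors. With 1 library left out, the count before LPS was 5237 to 8931, that of the change with LPS 1 to 182 and that of Pol II 2 to 136. The lowest count before LPS was without untreated Nur77 replicate 2, and it was 5491 without untreated Nur77 replicate 1. With peaks of at least 30 tags, 1116 Nur77-only and 1299 GFP-only regions were left. With 1 library left out these were 4804 to 10160 and 3467 to 6591, since fewer libraries had to hold or lack a peak. The chromosome 12 median (-0.58) was -0.22 as tags per bp, -0.64 without scaling factors, -0.50 with a pseudocount of 10, and -0.61 to -0.55 in the others. Signs turned at Dlst (0.14) and Dld (0.17) when centred per chromosome, by construction of the centring, and at Ogdh (-0.20) as tags per bp. When centred, Fos and Jdp2 on the same chromosome as Dlst and Dld turned as well, as given with the AP-1 genes. Except where the construction shows it, the cause was not tested. Not every called list member or named region kept its call without each library in turn.

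Replicate numbers are shared between the lines. With the replicate number as a block, 11849 regions were called in place of 8628, and 1804 in place of 1 for Pol II. The deviations of equally numbered libraries correlated with r = 0.073 for H3K27ac and 0.453 for Pol II. The labels do not say that a number marks a shared batch, so no pairing was assumed. Centring or leaving out chromosome 12, the alternatives to the fit of 8 libraries, those to Pol II and those to the chromosome 12 median were chosen after seeing the data. Depth and the caller's threshold limit regions near 5 tags, where no peak gives no value.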
